A study of Mus musculus with 6 samples.

Results

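The genes described here are 37 genes of glucose metabolism and oxygen sensing, namely the enzymes and transporters of glycolysis, the enzyme that commits pyruvate to the mitochondrion and its kinases, 4 enzymes of the pentose phosphate pathway, and the hypoxia-inducible factors with some of their regulators and targets. They were chosen by name and matched to mouse Ensembl gene identifiers, and all 37 were found among the 38293 genes of the deposited counts. RNA of Lin-c-Kit+ fetal liver (FL) cells, the fraction that holds hematopoietic stem and progenitor cells, was sequenced at embryonic day 14.5 from C57BL/6 embryos, 3 of them wt and 3 of the genotype VavCre+hnRNP L fl/fl, each library being titled by its own embryo. In the latter genotype, called hnRNP L deficient, Cre expressed from the Vav promoter deletes the floxed alleles of the splicing regulator hnRNP L in blood cells. The labels call the controls wild-type and the study marks its wt reads as L fl/fl, whereas whether the controls carried Cre is not given in the sources used here. The labels name fetal liver as the source and whole embryo as the tissue, whereas the sort for Lin-c-Kit+ cells is given in the study's methods.

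Glycolysis splits glucose into pyruvate in the cytosol and yields ATP without oxygen, and its upper part feeds the pentose phosphate pathway, which makes NADPH and ribose. The transcription factor HIF-1 raises many glycolytic genes when oxygen is low, and the prolyl hydroxylases encoded by *Egln1* and *Egln3* mark its alpha subunit for degradation when oxygen is present. Quiescent hematopoietic stem cells of adult bone marrow are known for a reliance on glycolysis, and dividing progenitors for a greater use of mitochondrial respiration. The study describes embryonic hematopoietic stem cells, in contrast, as proliferating.

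Reads on genes numbered between 55952160 and 76157226 per library, and 3 reads corresponded to between 0.0394 and 0.0536 CPM, that is, read counts scaled for library size and composition. The deleted gene *Hnrnpl* reached 537 ± 13.2 CPM in wt and 267 ± 23.2 CPM in deficient libraries (SD, n = 3 each), without overlap (log2 fold change -1.01, edgeR adjusted p = 0.00724). The marker *Kit* was present in every library but lower in the deficient ones (423, 488 and 656 CPM against 368, 325 and 330 CPM, log2 fold change -0.62, edgeR adjusted p = 0.0402), and of 5 progenitor markers 3 fell, *Cd34* and *Meis1* being the others. Wt replicate 2 stood apart from the other libraries. The 8 granulocyte markers summed to 8595 CPM there, to 563 and 1460 CPM in wt replicates 1 and 3 and to between 240 and 964 CPM in the deficient libraries, and 7 monocyte and macrophage markers to 340 CPM, to 45.03 and 101 CPM and to between 13.5 and 62.4 CPM. The 7 hepatocyte markers summed to between 111 and 235 CPM in wt and between 24.7 and 74.3 CPM in deficient libraries, the 4 endothelial markers to between 22.8 and 52.8 CPM and between 11.03 and 13.99 CPM, and the 8 erythroid markers to between 1391 and 1540 CPM and between 1240 and 1839 CPM. The 6 megakaryocyte markers summed to between 82.8 and 134 CPM and between 77.1 and 103 CPM, the 5 mast cell and basophil markers to between 20.7 and 88.9 CPM and between 12.5 and 44.5 CPM, and the 7 lymphoid markers to between 1.40 and 8.605 CPM and between 0.202 and 0.643 CPM. In edgeR's test 2 of the monocyte and macrophage, 2 of the lymphoid and 1 each of the erythroid, megakaryocyte, hepatocyte and endothelial markers fell, 1 megakaryocyte marker rose, and 0 of the granulocyte or mast cell and basophil markers passed. Of all 14396 genes tested, 9.32% rose and 9.85% fell. None of these marker genes was at 0 reads in all 6 libraries. The part of these differences in the values that follow was not tested, and in sorted bulk samples fewer cells of a type and less RNA per cell cannot be told apart.

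Of the 37 genes, 36 passed the expression filter, and 8 of these passed the threshold, an adjusted p-value below 0.05 when the 3 hnRNP L deficient were compared with the 3 wt libraries by edgeR's quasi-likelihood test. *Slc2a1*, *Aldoa*, *Gapdh*, *Ldha* and *Pdha1* rose, by between 0.32 and 0.55 on the log2 scale, and *Pfkl*, *Pdk1* and *Egln3* fell, by between 0.64 and 1.69. The 5 rises were 13.9% of the genes tested here, against 9.32% of all 14396 genes tested, and the 3 falls 8.33%, against 9.85%. The median log2 fold change was 0.07, against -0.03 for all genes. Every deficient library was above every wt library in 10 of the 36 genes and below in 8, or 27.8% and 22.2%, where 22.7% of all genes tested lay in each direction. The calls depended on the libraries. In edgeR fits without wt replicate 3, or without any single one of the 3 deficient libraries, 0 of the 36 genes passed, with adjusted p-values of the 8 between 0.0517 and 0.168. Few genes passed over the whole table without a deficient library either. Leaving out deficient replicates 1, 2 and 3 in turn, 15, 8 and 7 of all genes rose and 2, 0 and 0 fell. At an unadjusted p-value under 0.05, between 6 and 10 of the 36 genes were higher and between 3 and 9 lower in these 4 fits. The share of all genes at that unadjusted level was not taken, so these counts have no background to be read against. Without wt replicate 2, 15 genes rose and 4 fell, where 11.4% and 12.7% of all genes did so, and the additional genes were *Slc2a3*, *Hk2*, *Gpi1*, *Pfkp*, *Tpi1*, *Pgk1*, *Pgam1*, *Eno1*, *Pkm* and *Pgd* among the rises and *Pdk2* among the falls. With DESeq2 9 rose and 5 fell, where 12.4% and 14.3% of the 15531 genes with an adjusted p-value did so, and with limma voom 12 and 5, where 17.6% and 19.1% of the 14396 genes did so. More genes passed over the whole table with these tools as well. DESeq2 added *Pfkp*, *Tpi1*, *Eno1*, *Pkm*, *Ldhb* and *Pdk2*. Limma voom added *Slc2a3*, *Hk2*, *Pfkp*, *Tpi1*, *Pgk1*, *Eno1*, *Pkm*, *Pdk2* and *Egln1*. With scaling by total counts alone 3 rose and 3 fell, *Gapdh* and *Pdha1* no longer passing (edgeR adjusted p = 0.0571 and 0.0517), and the split of calls over all genes went from 1341 higher and 1418 lower to 1066 and 1751.

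**Figure D1:**
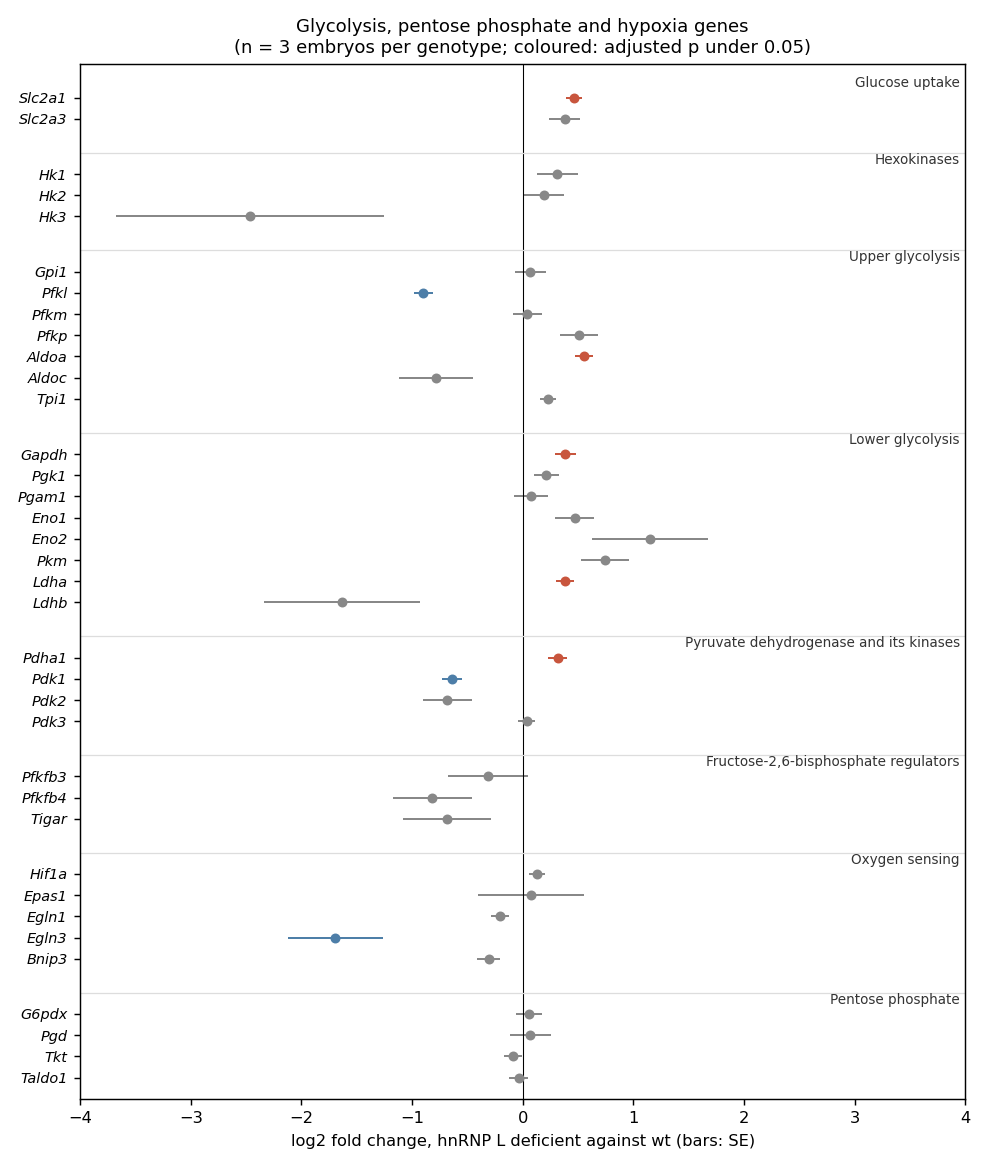
Log2 fold change of the 36 tested genes in 3 hnRNP L deficient against 3 wt libraries, arranged by role, with the standard error as bars on the horizontal axis. Orange points rose and blue points fell at an adjusted p-value under 0.05, and the rises of *Aldoa*, *Gapdh*, *Ldha*, *Slc2a1* and *Pdha1* lie between 0.32 and 0.55, while *Pfkl* is at -0.90 and *Egln3* at -1.69.

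GLUT1 and GLUT3 carry glucose across the cell membrane, and their use by these cells was not measured. *Slc2a1*, the gene of GLUT1 (ENSMUSG00000028645, GRCm38 chromosome 4, positions 119108711 to 119137983), was counted at 53.5, 52.3 and 56.4 CPM in wt and at 71.9, 79.7 and 72.6 CPM in deficient libraries, given here and below in the order of the replicates. The 3 deficient libraries were all above the wt libraries, and the gene rose by 0.47 on the log2 scale (standard error 0.07, edgeR adjusted p = 0.0147). *Slc2a3*, the gene of GLUT3 and the more abundant of the pair per length in wt (20.5 against 16.6 CPM per kb of transcript), had 95.2, 63.7 and 84.5 CPM in wt and 108, 104 and 105 CPM in deficient libraries. Its groups did not overlap either, but wt replicate 2 was low, and the log2 fold change of 0.38 (standard error 0.14) did not pass (edgeR adjusted p = 0.0957). Of 9 other glucose transporters 5 were tested, 0 of these rose and 1 fell, namely *Slc2a6*, at 0.414, 1.38 and 0.743 CPM in wt and 0.0777, 0.0306 and 0.147 CPM in deficient libraries (log2 fold change -3.27, edgeR adjusted p = 0.0248), levels at which few reads were counted. Of all genes tested, 9.32% rose and 9.85% fell.

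Hexokinases trap glucose in the cell as glucose 6-phosphate. *Hk1* supplied most hexokinase mRNA, with 175 CPM per kb in wt against 10.8 for *Hk2* and 5.87 for *Hk3*. It had 672, 494 and 853 CPM in wt and 866, 816 and 827 CPM in deficient libraries, so that the wt embryos varied by more than the genotypes differed (log2 fold change 0.31, standard error 0.18, edgeR adjusted p = 0.253). *Hk2* differed by 0.19 (edgeR adjusted p = 0.470) and passed with limma voom and without wt replicate 2. *Hk3*, a hexokinase of myeloid cells, had 46.3 CPM in wt replicate 2 alone, 2.75 and 7.57 CPM in the other wt libraries and between 0.963 and 5.02 CPM in the deficient libraries. Its log2 fold change of -2.47 became -0.60 without that library and passed in neither fit (edgeR adjusted p = 0.201 and 0.596). The granulocyte marker sum was also highest in wt replicate 2, and its part in the *Hk3* value was not tested.

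In the upper part of glycolysis, *Pfkl* and *Aldoa* moved in opposite directions. Phosphofructokinase catalyses the committed step, and *Pfkl* encodes its liver-type subunit, *Pfkm* the muscle type and *Pfkp* the platelet type. *Pfkl* (ENSMUSG00000020277, chromosome 10 from 77986947 to 78010083) had 252, 238 and 276 CPM in wt and 133, 147 and 132 CPM in deficient libraries. It fell to 53.6% of the wt mean, with no overlap between genotypes (log2 fold change -0.90, standard error 0.09, edgeR adjusted p = 0.00968), the smallest adjusted p-value of the 36 genes. *Pfkm* had 141 ± 25.7 CPM in wt and 145 ± 4.69 CPM in deficient libraries (SD, n = 3 each, edgeR adjusted p = 0.844), and *Pfkp* 34.0 ± 8.01 and 48.2 ± 5.34 CPM (edgeR adjusted p = 0.0784). Per length of transcript, *Pfkl* made up 54.1%, 56.1% and 53.6% of the summed mRNA of the 3 subunits in wt and 37.04%, 37.9% and 36.5% in deficient libraries. The exact two-sided permutation test of this share gave p = 0.1, the smallest that 3 libraries against 3 allow, and 0.2 after adjustment over 10 such comparisons of shares and sums, which were chosen after the values were seen. The sum of the 3 subunits went from 126 ± 12.4 to 98.8 ± 4.40 CPM per kb (SD, n = 3), also without overlap.

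*Aldoa* (ENSMUSG00000030695, chromosome 7 from 126795234 to 126800751), the main aldolase here, cleaves fructose 1,6-bisphosphate into a pair of triose phosphates. It had 604, 693 and 628 CPM in wt and 921, 961 and 942 CPM in deficient libraries, a rise of 0.55 (standard error 0.08, edgeR adjusted p = 0.0144). The gap between the genotypes was larger than the spread within either. The brain-type aldolase gene *Aldoc* reached at most 1.08 CPM in any library. *Tpi1*, triose phosphate isomerase, had 622 ± 6.90 CPM in wt and 729 ± 9.89 CPM in deficient libraries, and its log2 fold change of 0.23 narrowly missed the threshold (edgeR adjusted p = 0.0578). *Gpi1*, which isomerizes glucose 6-phosphate, overlapped between genotypes (476 ± 99.4 and 499 ± 4.93 CPM, edgeR adjusted p = 0.756).

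**Figure D2:**
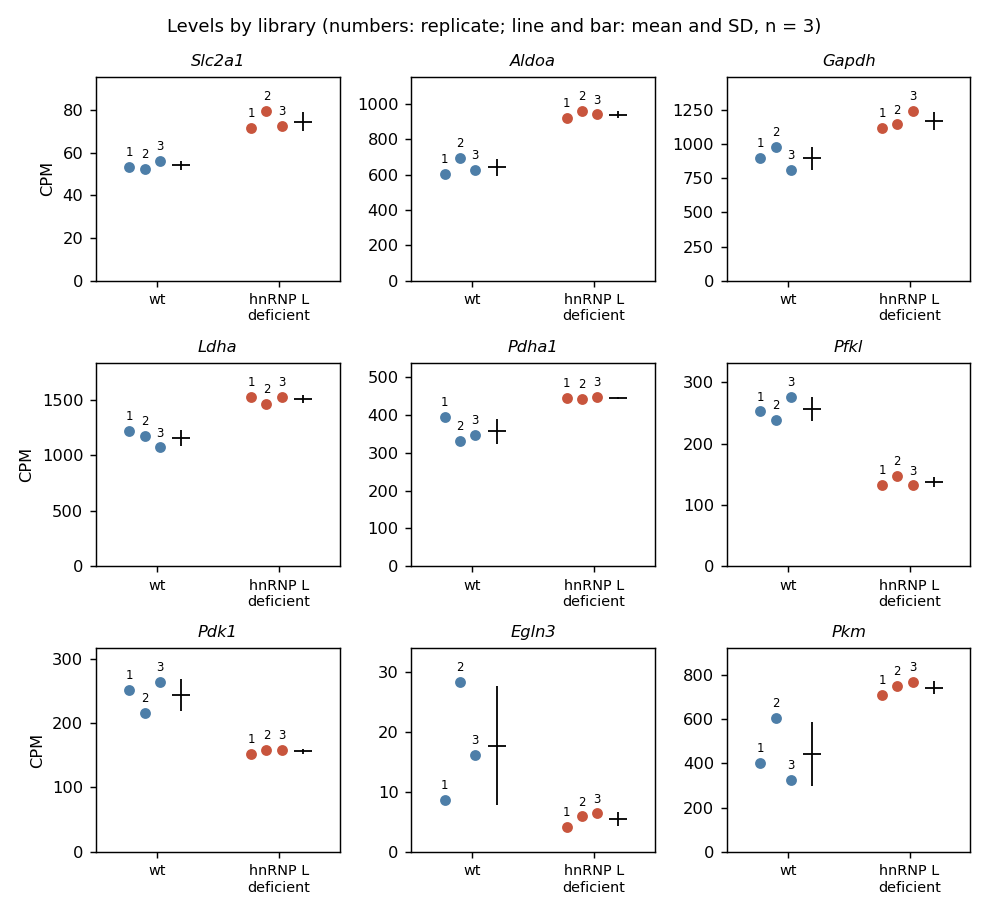
Level in CPM (vertical axes, from 0) of the 8 genes that passed the test and of *Pkm* in each of the 3 wt (blue) and 3 hnRNP L deficient (orange) libraries, with the mean and SD beside the points. The genotypes overlap in none of the 9 genes. Wt replicate 2 is the highest wt library for *Aldoa* (693 CPM), *Gapdh* (979 CPM), *Egln3* (28.3 CPM) and *Pkm* (605 CPM).

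The lower part of glycolysis, from glyceraldehyde 3-phosphate to pyruvate and lactate, held 8 of the genes. *Gapdh* and *Ldha* rose, 0 fell and 6 did not pass, and 7 of the 8 log2 fold changes were positive. Of all 14396 genes tested, 9.32% rose, 9.85% fell and 6837 had a positive log2 fold change. *Gapdh* (ENSMUSG00000057666, chromosome 6 from 125161715 to 125166467), whose enzyme oxidizes glyceraldehyde 3-phosphate, had 899, 979 and 809 CPM in wt and 1123, 1146 and 1244 CPM in deficient libraries. It rose by 0.39 (standard error 0.10, edgeR adjusted p = 0.0358), and the gene is the one to which the study's methods relate RT-qPCR values. *Ldha* (ENSMUSG00000063229, chromosome 7 from 46841475 to 46855627), the lactate dehydrogenase subunit that favours lactate formation, was the most abundant of the 37 genes per length in wt, with 654 CPM per kb. It had 1218, 1177 and 1071 CPM in wt and 1528, 1464 and 1524 CPM in deficient libraries, a rise of 0.38 (standard error 0.08, edgeR adjusted p = 0.0255). Neither gene overlapped between the genotypes, and for *Ldha* the gap between them was also wider than the range within either. The heart-type subunit *Ldhb* had 10.9 CPM in wt replicate 2 and between 1.35 and 2.75 CPM in the other 5 libraries, and its log2 fold change went from -1.63 to -0.40 without that library (edgeR adjusted p = 0.141 and 0.399).

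*Pgk1* (209 ± 31.6 and 242 ± 9.84 CPM in wt and deficient libraries) and *Pgam1* (64.1 ± 15 and 67.6 ± 2.18 CPM), which carry the pathway from 1,3-bisphosphoglycerate to 2-phosphoglycerate, overlapped between genotypes (SD, n = 3 each). The enolase *Eno1* did not overlap but varied among wt embryos (447 ± 107 and 619 ± 37.2 CPM, edgeR adjusted p = 0.1), and the neuronal enolase *Eno2* reached at most 1.01 CPM. Several of the 37 genes have near-identical copies elsewhere in the genome. Stretches of at least 200 bases with 95% identity or more to transcripts of 78 other genes annotated in GENCODE M21 were found for *Gapdh*, of 5 for *Bnip3*, of 4 each for *Ldha* and *Pgk1*, of 3 for *Eno1*, of 2 for *Pkm* and of 1 each for *Pdha1*, *Tpi1*, *Gpi1*, *Pfkp*, *Pgam1* and *Ldhb*, and 0 for *Pfkl*, *Pdk1*, *Slc2a1*, *Aldoa* and *Egln3*. Alignments to more than 1 place, between 39.8% and 44.7% of all counts of each library, were not counted on genes, so the levels of the former are uncertain. This is a share of counted alignments and need not be the share of reads.

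Pyruvate kinase forms pyruvate and is encoded by *Pkm* and, in erythroid and liver cells, *Pklr*. *Pkm* (ENSMUSG00000032294, chromosome 9 from 59656368 to 59679375) had 401, 605 and 324 CPM in wt and 711, 751 and 768 CPM in deficient libraries. No deficient library overlapped with the wt libraries, but the wt libraries differed widely, and the log2 fold change of 0.75 (standard error 0.21) fell just short of the threshold (edgeR adjusted p = 0.0522). The change was 1.04 without wt replicate 2 (edgeR adjusted p = 0.00334) and passed with DESeq2 (adjusted p = 0.00157) and limma voom (adjusted p = 0.00158). *Pklr*, which is not one of the 37 genes, had 765, 492 and 819.9 CPM in wt and 886, 984 and 979 CPM in deficient libraries (edgeR adjusted p = 0.12). Wt replicate 2 was thus the highest wt library for *Pkm* and the lowest for *Pklr*. Added per length of transcript, the pyruvate kinase genes gave 428, 418 and 416 CPM per kb in wt and 598, 648 and 653 CPM per kb in deficient libraries, with means of 421 ± 6.59 and 633 ± 30.6 (SD, n = 3). This sum separated the genotypes (exact two-sided permutation p = 0.1, the smallest possible, adjusted p = 0.2 over the 10 comparisons). The share of *Pkm* in it did not, with 38.4%, 59.4% and 32.1% in wt and between 47.6% and 48.9% in deficient libraries (exact permutation p = 0.7, adjusted p = 0.778).

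**Figure D3:**
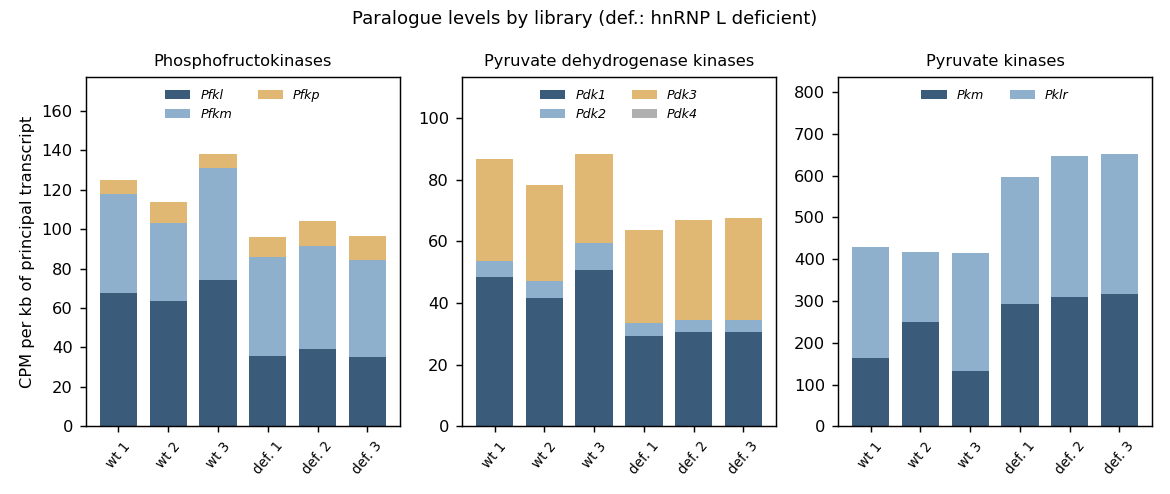
Stacked levels of the genes of phosphofructokinase, pyruvate dehydrogenase kinase and pyruvate kinase in each of the 6 libraries, in CPM per kb of transcript from 0. *Pfkl* is the segment that shrinks in the deficient libraries on the left (from 54.6% to 37.2% of the bar on average), *Pdk1* in the middle, and on the right the whole bar grows from 421 to 633 on average.

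*Pkm* makes its M1 and M2 enzymes by using 1 of a pair of mutually exclusive exons, of which the M1 exon is repressed by PTB and by other hnRNP proteins. The deposited counts divide *Pkm* into 12 exon bins without coordinates. GENCODE M21 has 12 distinct exons in the M1 and M2 transcripts, and matching them in order makes bin 9 the M1 exon and bin 10 the M2 exon, which is an inference, since the whole annotation would give 36 bins. The exons, both of 167 bases, are shown because bins 9 and 10 are told apart only by the bases in which they differ. They are identical at 103 positions (61.7%), and capitals mark the positions that differ.
Pkm exon 9, chr9:59675029-59675195, plus strand: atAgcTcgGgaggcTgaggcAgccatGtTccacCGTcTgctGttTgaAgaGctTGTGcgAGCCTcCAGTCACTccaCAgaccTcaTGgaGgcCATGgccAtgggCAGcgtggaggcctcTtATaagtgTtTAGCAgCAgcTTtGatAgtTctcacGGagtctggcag
Pkm exon 10, chr9:59675568-59675734, plus strand: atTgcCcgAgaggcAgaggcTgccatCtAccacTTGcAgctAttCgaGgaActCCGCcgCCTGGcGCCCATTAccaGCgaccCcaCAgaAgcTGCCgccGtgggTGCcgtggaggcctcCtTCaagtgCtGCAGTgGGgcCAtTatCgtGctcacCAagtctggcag
In the 3 wt libraries bin 9 held 133, 360 and 206 reads and bin 10 held 2127, 3619 and 2656 reads, and in hnRNP L deficient replicates 2 and 3, which have exon bin counts, bin 9 held 534 and 682 reads and bin 10 held 5221 and 6281 reads. The share of bin 9 in the sum was 5.88% (95% Wilson interval 4.99 to 6.93), 9.05% (8.195 to 9.98) and 7.198% (6.31 to 8.203) in wt and 9.28% (8.56 to 10.1) and 9.79% (9.12 to 10.5) in deficient libraries. These intervals cover counting error only. The deficient libraries were the highest, but the interval of wt replicate 2 included both of their values, and the exact two-sided permutation test could not go below its value of p = 0.2 for 3 libraries against 2. Of the 12 bins, 0 passed in edgeR's diffSpliceDGE, which compares the reads on a bin with those on the other bins of its gene, and 0 had an unadjusted p-value under 0.05. Log2 changes in usage ranged from -0.12 to 0.41, the latter for bin 9 (edgeR unadjusted p = 0.392). Limma's diffSplice called 0 as well. Without wt replicate 2, bin 9 had an unadjusted p-value of 0.00222. Of 8 genes listed here as known or possible regulators of *Pkm* splicing, 3 rose and 1 fell, against 9.32% and 9.85% of all genes tested. *Hnrnpll*, a paralogue of *Hnrnpl*, rose by 0.64 (139 ± 9.32 to 216 ± 4.37 CPM, edgeR adjusted p = 0.0102), *Ptbp1*, a repressor of the M1 exon, by 0.31 (787 ± 55.6 to 975 ± 29.1 CPM, edgeR adjusted p = 0.0437) and *Nek2* by 0.44, whereas *Ptbp2*, the neuronal PTB, fell by 0.58 on the log2 scale (32.6 ± 4.94 to 21.8 ± 1.62 CPM, edgeR adjusted p = 0.0286).

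Over the exon bins of the 37 genes, 625 of 839 bins were tested in 34 genes, and 1 passed, where 0.0288% of all 176996 tested bins did. This was bin 16 of *Hk1* (ENSMUSG00000037012, chromosome 10 from 62268855 to 62379908). It held 118, 43 and 141 reads in wt replicates 1 to 3 and 405 and 581 reads in hnRNP L deficient replicates 2 and 3, or 1.17, 0.421 and 1.04 CPM against 3.35 and 4.12 CPM. The deficient libraries were above all wt libraries, while the bins on either side, 15 and 17, had log2 changes in usage of 0.12 and 0.03. Relative to bin 15 the reads on bin 16 came to 6.43%, 3.03% and 4.06% in wt and 13.7% and 16.2% in deficient libraries. The log2 change in usage was 1.83 (edgeR diffSpliceDGE adjusted p = 0.0168). With limma's diffSplice it was 1.94 with an adjusted p of 0.0540. In diffSpliceDGE the adjusted p was 0.0964 without wt replicate 1, 6.58e-06 without wt replicate 2 and 0.0283 without wt replicate 3. The changes were 2.09, 1.66 and 1.80. Without deficient replicate 2 or 3 the change was 1.97 or 1.69. A single deficient library then remained, so a spread within that genotype could not be taken. At an unadjusted p-value under 0.01 with a change above 2-fold, 4 bins (0.64%) passed, where 0.249% of all bins did. Besides bin 16 they were bin 11 of *Hk1*, bin 14 of *Pfkp* and bin 2 of *Aldoa*, each with at most 1.56 CPM in any library.

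GENCODE M21, divided into bins by the same rule, gives 47 bins for *Hk1*, as many as the deposited counts hold, and such numbers were equal for 16 of the 37 genes. By this match bin 16 is a cassette exon of 69 bases, or 23 codons, inside the coding sequence, present in 2 of the annotated transcripts. Both of these also include bins 36 and 37 nearer their 5' ends. Bin 36 held 2 reads in deficient replicate 3 and 0 in the other libraries, and bin 37 held 0 in all. The 5' parts of both annotated transcripts were thus nearly without reads. The exon is shown because it is the only exon of these genes whose usage passed the test. hnRNP L binds CA-rich RNA, and capitals mark the 1 match to CACACA on the sense strand, a motif searched after the exon was seen.
Hk1 cassette exon, chr10:62291975-62292043, minus strand: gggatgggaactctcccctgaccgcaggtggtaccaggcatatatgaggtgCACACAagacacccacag
Of 929 coding exons of the same length in principal transcripts, 12 (1.3%) hold CACACA. The match is a description of these letters and not of a binding site, and the introns beside the exon were not analysed here. Longer repeats were not particular to these genes, since ACACACAC occurs in the principal transcripts of 2 of the 37 genes and in 13.8% of all principal transcripts.

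**Figure D4:**
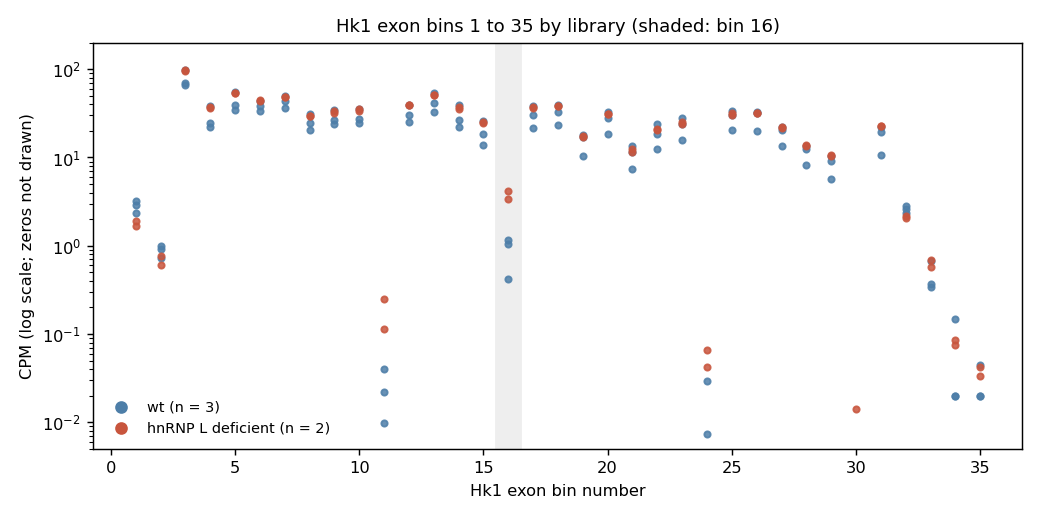
Level of exon bins 1 to 35 of *Hk1* in the 3 wt (blue) and 2 hnRNP L deficient (orange) libraries with exon bin counts, in CPM on a log axis. At the shaded bin 16 the deficient libraries are at 3.35 and 4.12 CPM and the wt libraries at 1.17 CPM or below, while at bin 15 the genotypes overlap.

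**Figure D5:**
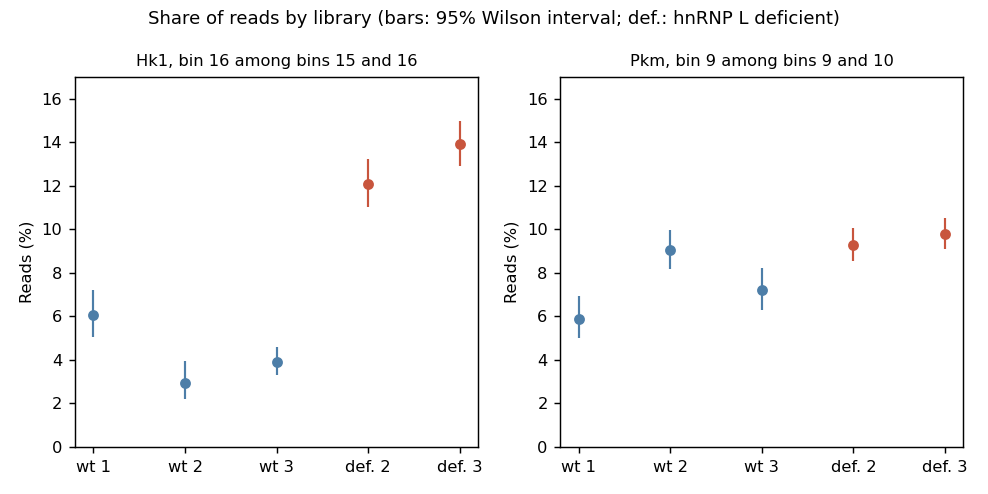
Percentage of reads on bin 16 of *Hk1* among bins 15 and 16 (left) and on bin 9 of *Pkm* among bins 9 and 10 (right), per library with 95% Wilson intervals on an axis from 0. The *Hk1* values of the deficient libraries, 12.1% and 13.9%, lie clear of the wt values of 2.94% to 6.05%, whereas for *Pkm* wt replicate 2 at 9.05% adjoins the deficient libraries.

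Pyruvate dehydrogenase links glycolysis to the citric acid cycle, and the PDK kinases switch it off. Here the subunit gene *Pdha1* rose, the kinase gene *Pdk1* fell and 2 of 4 tested genes did not pass. Over all genes tested, 9.32% rose and 9.85% fell. *Pdha1* (ENSMUSG00000031299, chromosome X from 160122209 to 160138413) had 395, 331 and 348 CPM in wt and 446, 442 and 449 CPM in deficient libraries, a rise of 0.32 (standard error 0.09, edgeR adjusted p = 0.0461). It had the largest adjusted p of the 8 calls and, like *Egln3*, missed the threshold when no expression filter was used (edgeR adjusted p = 0.0511 and 0.0578). *Pdk1* (ENSMUSG00000006494, chromosome 2 from 71873224 to 71903858), a target of HIF-1, had 251, 216 and 263 CPM in wt and 152, 158 and 159 CPM in deficient libraries. It fell by 0.64 on the log2 scale (standard error 0.09, edgeR adjusted p = 0.0136), and the genotypes were clearly apart. *Pdk2* pointed the same way without passing in edgeR's test (14.3 ± 4.56 and 8.95 ± 0.456 CPM, edgeR adjusted p = 0.0707). It passed with DESeq2 (adjusted p = 0.0172) and limma voom (adjusted p = 0.0045). *Pdk3* had 65.6 ± 4.27 and 67.3 ± 3.06 CPM (edgeR adjusted p = 0.753). *Pdk4* was the gene left out by the filter, with 11, 0 and 0 reads in wt and 1, 0 and 1 reads in deficient libraries. Per length, *Pdk1* made up 56.0%, 53.3% and 57.4% of the mRNA of the 4 kinases in wt and 46.0%, 45.6% and 45.4% in deficient libraries, and the sum of the kinases went from 84.4 ± 5.45 to 66.0 ± 1.98 CPM per kb (exact two-sided permutation p = 0.1 for each, adjusted p = 0.2).

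Of 13 other genes of pyruvate entry and lactate transport, 1 rose and 1 fell, against 9.32% and 9.85% of all genes tested. The median log2 fold change of the 13 was 0.17, against -0.03 for all genes. *Slc16a3*, the lactate exporter MCT4 and a target of HIF-1, had 136, 97.5 and 153 CPM in wt and 192, 219.8 and 207 CPM in deficient libraries, a rise of 0.68 (standard error 0.16, edgeR adjusted p = 0.0319). *Slc16a7*, the monocarboxylate transporter MCT2, had 1.58, 6.05 and 3.08 CPM in wt and 0.311, 0.428 and 0.375 CPM in deficient libraries (log2 fold change -3.26, edgeR adjusted p = 0.0148). Of 14 other glycolytic enzymes tested, *Pgam5*, a mitochondrial phosphatase named for its fold, rose by 0.52 (88.0 ± 6.63 to 126 ± 4.70 CPM, edgeR adjusted p = 0.0144) and 0 fell, against the same 9.32% and 9.85% of all genes tested. Of 3 gluconeogenic genes tested 0 passed in edgeR's test, with 1 at an unadjusted p-value under 0.05, and 1 passed with DESeq2 and 2 with limma voom. Over all genes, 12.4% rose and 14.3% fell with DESeq2, and 17.6% and 19.1% with limma voom. *Pck2*, mitochondrial phosphoenolpyruvate carboxykinase, was the closest with 110 ± 18.8 and 81.7 ± 2.69 CPM (edgeR adjusted p = 0.0535).

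Fructose 2,6-bisphosphate is the main activator of phosphofructokinase, and *Pfkfb3* and *Pfkfb4* encode enzymes that make and break it, while *Tigar*, a p53 target, lowers it. In all 3 genes wt replicate 2 was the highest of the 6 libraries, and 0 passed in edgeR's test, in DESeq2 or in limma voom, with 0 at an unadjusted p-value under 0.05 in edgeR. *Pfkfb3*, the most abundant, had 21.9, 54.6 and 24.3 CPM in wt and 29.7, 23.5 and 27.9 CPM in deficient libraries. Its log2 fold change of -0.31 turned to 0.23 without wt replicate 2 (edgeR adjusted p = 0.557 and 0.208). *Tigar* had 5.58, 13.5 and 4.54 CPM in wt and 5.25, 4.57 and 4.86 CPM in deficient libraries, and its log2 fold change of -0.68 became -0.05 without that library. The marker sums of granulocytes and monocytes were likewise highest in wt replicate 2, and their part was not tested.

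Among the oxygen sensing genes 1 of 5 fell and 0 rose, against 9.85% and 9.32% of all genes tested. *Hif1a*, the most abundant of the 5 per length, had 81.3, 80.5 and 73.3 CPM in wt and 88.6, 86.0 and 82.0 CPM in deficient libraries. The values did not overlap, but the gene differed by only 0.13 on the log2 scale (standard error 0.07, edgeR adjusted p = 0.243). *Epas1*, the gene of HIF-2 alpha, was between 0.133 and 0.291 CPM. *Egln3* (ENSMUSG00000035105, chromosome 12 from 54178981 to 54203860), a hydroxylase that is itself induced by HIF-1, had 8.62, 28.3 and 16.2 CPM in wt and 4.12, 5.91 and 6.40 CPM in deficient libraries. It fell by 1.69 on the log2 scale (standard error 0.43, edgeR adjusted p = 0.0376) and by 1.18 without wt replicate 2 (edgeR adjusted p = 0.0275). In that library the granulocyte marker sum was also highest, and its part in the *Egln3* value was not tested. *Egln1*, the main oxygen sensor, had 50.6 ± 3.30 and 43.7 ± 2.14 CPM (edgeR adjusted p = 0.109), and *Bnip3*, a mitophagy receptor induced by HIF-1, 21.0 ± 0.331 and 16.9 ± 1.40 CPM (edgeR adjusted p = 0.0767). Both were lower in every deficient library.

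Of 17 other hypoxia-inducible genes tested, 2 rose and 4 fell, against 9.32% and 9.85% of all genes tested, with a median log2 fold change of -0.21 against -0.03. *Ddit4*, an inhibitor of mTORC1 that also responds to p53, had 1.01, 2.38 and 2.19 CPM in wt and 10.3, 14.0 and 14.8 CPM in deficient libraries, a rise of 2.80 (standard error 0.35, edgeR adjusted p = 0.0110). *Ak4*, a mitochondrial adenylate kinase, rose by 0.88 (19.0 ± 4.37 to 34.9 ± 1.48 CPM, edgeR adjusted p = 0.0208). *Kdm3a*, a histone demethylase, fell by 0.51 on the log2 scale (67.9 ± 7.94 to 47.7 ± 1.84 CPM, edgeR adjusted p = 0.0204) and *P4ha1*, a collagen prolyl hydroxylase, by 0.50 (39.6 ± 4.07 to 28.0 ± 2.51 CPM, edgeR adjusted p = 0.0267). *Ndrg1* and *Fam162a* fell as well. *Vegfa*, a classical target of HIF-1, had 32.6 ± 9.09 and 31.5 ± 4.22 CPM (edgeR adjusted p = 0.878). Of 8 other oxygen sensing factors tested, *Siah2*, a ubiquitin ligase for EGLN proteins, rose by 0.65 (9.89 ± 0.758 to 15.47 ± 0.625 CPM, edgeR adjusted p = 0.0190) and 0 fell, against the same 9.32% and 9.85% of all genes tested.

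The known HIF-1 targets *Slc2a1*, *Pdk1* and *Egln3* passed the test in opposite directions, and the 250 bases before their RefSeq transcription starts are shown to set these promoters side by side. Capitals mark ACGTG or GCGTG, the core of the HIF response element, on either strand (CACGT or CACGC on the other). ACGTG overlaps the E-box CACGTG, in which both strands match. The sequences are from RefSeq (GRCm38.p6), whose start lies 34 bases inside the GENCODE M21 model of *Slc2a1*, so that the last 34 bases of this window are part of that model. The RefSeq start of *Egln3* lies 14 bases upstream of the GENCODE one, and that of *Pdk1* is the same.
Slc2a1, chr4:119108495-119108744, plus strand: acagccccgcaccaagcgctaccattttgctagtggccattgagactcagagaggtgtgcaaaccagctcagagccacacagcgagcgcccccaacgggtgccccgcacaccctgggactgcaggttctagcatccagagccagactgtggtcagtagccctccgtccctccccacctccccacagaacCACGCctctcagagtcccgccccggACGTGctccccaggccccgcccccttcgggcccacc
Pdk1, chr2:71872974-71873223, plus strand: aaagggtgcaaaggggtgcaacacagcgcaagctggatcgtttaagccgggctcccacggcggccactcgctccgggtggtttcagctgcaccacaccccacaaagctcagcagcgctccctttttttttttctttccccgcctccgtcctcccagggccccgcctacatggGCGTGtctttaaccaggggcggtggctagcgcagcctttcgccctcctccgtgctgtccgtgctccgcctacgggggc
Egln3, chr12:54203875-54204124, minus strand: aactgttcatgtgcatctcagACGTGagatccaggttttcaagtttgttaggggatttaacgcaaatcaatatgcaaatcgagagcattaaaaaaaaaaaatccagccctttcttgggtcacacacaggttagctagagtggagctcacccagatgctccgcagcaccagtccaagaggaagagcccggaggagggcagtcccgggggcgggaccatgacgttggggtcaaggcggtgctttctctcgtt
The *Slc2a1* window holds 2 matches and the *Pdk1* and *Egln3* windows 1 each, so the gene that rose and the genes that fell all hold the core. A window was found for 35 of the 37 genes, and 29 of these (82.9%) hold at least 1 match, as do 56.9% of the 9907 tested genes with a window and 45.4% of all 16188 genes with one. The genes were chosen in part as known targets of HIF-1, and the motif was chosen with the data known, so these shares are a description.

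The pentose phosphate genes showed the smallest differences. *Tkt*, the transketolase of the non-oxidative branch and the most abundant of the 4 per length (308 CPM per kb in wt), had 931, 1045 and 999 CPM in wt and 956, 927 and 917 CPM in deficient libraries, which overlapped (log2 fold change -0.09, standard error 0.08, edgeR adjusted p = 0.448). *G6pdx*, the rate-limiting enzyme of the oxidative branch, had 129 ± 19.0 and 135 ± 10.6 CPM (edgeR adjusted p = 0.754), *Pgd* 258 ± 73.5 and 271 ± 2.30 CPM, and *Taldo1*, transaldolase, 293 ± 25.3 and 286 ± 9.49 CPM. The log2 fold changes of the 4 lay between -0.09 and 0.07 and 0 passed in edgeR's test, in DESeq2 or in limma voom, with 0 at an unadjusted p-value under 0.05 in edgeR. *Pgd* passed without wt replicate 2, in which it was highest (log2 fold change 0.33, edgeR adjusted p = 0.0104). Of 9 other genes of ribose metabolism tested, 2 rose and 0 fell, against 9.32% and 9.85% of all genes tested. The 2 rises were *Rbks*, ribokinase (16.7 ± 1.23 to 24.2 ± 0.800 CPM, a rise of 0.54, edgeR adjusted p = 0.0199), and *Prps1*, which makes phosphoribosyl pyrophosphate for nucleotide synthesis (133 ± 20.2 to 177 ± 4.14 CPM, a rise of 0.41, edgeR adjusted p = 0.0454).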

How the data were processed

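The samples were Lin-c-Kit+ FL cells, sorted from 3 wt and 3 hnRNP L deficient embryos. Per the labels and methods, libraries were stranded and paired-end, and the authors aligned the reads to GRCm38 (mm10) with TopHat2 2.0.10, handled them with SAMtools and deposited raw counts per Ensembl gene (HTSeq, 6 libraries) and per exon bin (5 libraries used here, bins of hnRNP L deficient replicate 1 being not analysed here). The Ensembl release and the counting options are not given in the sources used here. Between 46.7% and 53.3% of the counts of each library lay on no gene row and were left out.

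The 37 genes and all further lists were chosen with earlier results of these data known. Symbols came from GENCODE M21 (95.1% of 38293 identifiers matched). Counts were normalized by TMM, filtered by filterByExpr (14396 genes) and tested with edgeR 4.0.16 (R 4.3.3), quasi-likelihood with robust estimation and Benjamini-Hochberg adjustment over all genes. The standard error is the log2 fold change over the root of F. Usage was tested by diffSpliceDGE on bins averaging 10 reads or more. CPM per kb divides CPM by the length of the principal (APPRIS) transcript. Values in every library are given for genes that passed with genotypes that did not overlap and for the most abundant gene of each role, and other genes named, such as *Pkm*, *Hk3*, *Tigar* and *Pklr*, were chosen after their values were seen. Alternatives were DESeq2 1.42.0, limma 3.58.1 (voom with sample weights, diffSplice), other scalings and filters, and each library left out. Only the fits of genes and bins were tested on simulated data, with changes larger than those of the genes called here. P-values rest on libraries that the titles give to separate embryos, n = 3 per genotype.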

Additional observations from a re-analysis of the deposited data

How the results depend on the processing

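No paired analysis was possible because the labels give no replicate numbers that the genotypes share, and replicates are numbered in the order of the samples. The direction of the 8 calls was the same under every alternative run. Under DESeq2 9 of the 37 genes rose and 5 fell (1924 and 2227 of 15531 genes with an adjusted p-value), under limma voom 12 and 5 (2537 and 2751 of 14396 genes), and under total counts 3 rose. In the 6 fits without one library, between 0 and 15 of the 37 rose and between 0 and 5 fell, and over all genes between 5 and 2312 rose and between 0 and 2479 fell. Of the bins, 0 passed under limma's diffSplice, 4 at an unadjusted p-value under 0.01 with a change above 2-fold, and between 0 and 1 without one library. The signs that reversed belonged to genes other than the 8, and the cause was not tested: under limma voom *Pfkm* at -0.084 and *Pfkfb3* at 0.017, and under total counts *Gpi1* at -0.0044, *Pfkm* at -0.028, *Pdk3* at -0.031, *G6pdx* at -0.015 and *Pgd* at -0.0054. In the fits without one library the values ranged from -0.014 to 0.26 for *Gpi1*, -0.091 to 0.17 for *Pfkm*, -0.049 to 0.28 for *Pgam1*, -0.0083 to 0.088 for *Pdk3*, -0.54 to 0.23 for *Pfkfb3*, -0.19 to 0.27 for *Epas1*, -0.014 to 0.18 for *G6pdx*, -0.052 to 0.33 for *Pgd* and -0.097 to 0.021 for *Taldo1*. With 3 embryos per genotype, the parts of counting error and of other sources in the spread between libraries were not tested. Few reads were counted on the genes at about 1 CPM or below (*Aldoc*, *Eno2*, *Epas1*, *Pdk4*).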
